A study of Mus musculus with 6 samples.

Results

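The Schlafen genes of the mouse are a family of growth regulators and antiviral factors, several of which are induced by type I interferon. Here they are the 7 members Slfn1, Slfn2, Slfn3, Slfn4, Slfn5, Slfn8 and Slfn9, taken by symbol from a table of 23608 genes measured by bulk RNA-seq in mouse leukemia cells. All 7 had a row in the table, 5 held enough reads to be tested, and Slfn1 and Slfn4 did not.

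The cells were AE9a leukemia cells, driven by AML1-ETO 9a, a shortened AML1-ETO fusion, and marked with GFP. They carried the genotype Usp18+/f and UBCER-Cre, a Cre recombinase that tamoxifen activates and that the ubiquitin C promoter drives in every cell type. After transplantation and onset of disease, recipient mice received oil or tamoxifen, and GFP+ Lin- c-Kit+ splenocytes were collected on day 3 from the first dose. The 3 libraries labeled oil carry the genotype Usp18+/f and the 3 labeled tamoxifen carry Usp18+/D, so the groups share the fusion, the Cre and the allele before recombination, and exposure to tamoxifen differs between them together with the allele. The comparison asks which genes differ once 1 allele of Usp18, a brake on interferon receptor signaling, is meant to be removed. The oil libraries are numbered 1, 3 and 4 and the tamoxifen libraries 1, 2 and 4.

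Schlafen proteins share a core that binds RNA. The short members Slfn1 and Slfn2 consist of little more than this core, Slfn3 and Slfn4 are of intermediate length, and Slfn5, Slfn8 and Slfn9 carry a helicase-like part at the end. Slfn2 keeps T cells and hematopoietic cells quiescent and protects tRNA from cleavage, the long members Slfn8 and Slfn9 cleave tRNA, and Slfn5 acts in the nucleus on interferon-dependent transcription. Interferon-induced transcription commonly runs through an interferon-stimulated response element, a motif bound by transcription factors that interferon receptors activate.

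The members lie together on chromosome 11 of the GRCm38 build, the mm10 build that the submitters name, in 263.8 kb from 82951349 to 83215154. From left to right Slfn5 lies at 82951349 to 82964840 (plus strand), Slfn9 at 82978390 to 82991830 (minus), Slfn8 at 83002158 to 83020810 (minus), Slfn2 at 83065112 to 83070678 (plus), Slfn1 at 83116849 to 83122670 (plus), Slfn4 at 83175186 to 83190216 (plus) and Slfn3 at 83191330 to 83215154 (plus). The pseudogene Slfn10-ps sits between Slfn8 and Slfn2, and Slfn14, which encodes a ribosome-associated nuclease, lies beyond Slfn3.

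Promoter windows from RefSeq (GRCm38.p6), reaching 250 bases before and 50 after an annotated start, were found for all 7 members. Those of the 5 tested members are printed because the family is known for interferon induction and these genes differed in direction. Capitals mark the core of an interferon-stimulated response element, GAAANNGAA, searched on both strands, where a match on the opposite strand reads TTCNNTTTC.
Slfn5, chr11:82951852-82952151, plus strand: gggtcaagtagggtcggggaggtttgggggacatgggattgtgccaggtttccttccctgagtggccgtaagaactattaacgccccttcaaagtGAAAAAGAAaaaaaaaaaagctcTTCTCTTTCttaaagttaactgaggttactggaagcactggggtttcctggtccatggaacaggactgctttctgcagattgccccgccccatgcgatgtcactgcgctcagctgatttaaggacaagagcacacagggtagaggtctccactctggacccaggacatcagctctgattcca
Slfn8, chr11:83020761-83021060, minus strand: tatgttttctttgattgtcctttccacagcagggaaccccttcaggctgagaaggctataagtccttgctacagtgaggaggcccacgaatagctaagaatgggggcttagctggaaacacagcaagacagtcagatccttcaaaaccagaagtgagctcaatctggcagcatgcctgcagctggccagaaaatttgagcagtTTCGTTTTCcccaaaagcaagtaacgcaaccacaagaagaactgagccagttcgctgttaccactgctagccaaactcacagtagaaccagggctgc
Slfn9, chr11:82991781-82992080, minus strand: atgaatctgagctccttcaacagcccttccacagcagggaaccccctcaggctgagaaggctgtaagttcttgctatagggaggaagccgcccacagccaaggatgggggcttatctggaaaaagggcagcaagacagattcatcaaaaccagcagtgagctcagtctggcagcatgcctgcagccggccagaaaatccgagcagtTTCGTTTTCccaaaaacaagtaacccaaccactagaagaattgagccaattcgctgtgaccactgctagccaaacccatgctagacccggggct
Slfn2, chr11:83064862-83065161, plus strand: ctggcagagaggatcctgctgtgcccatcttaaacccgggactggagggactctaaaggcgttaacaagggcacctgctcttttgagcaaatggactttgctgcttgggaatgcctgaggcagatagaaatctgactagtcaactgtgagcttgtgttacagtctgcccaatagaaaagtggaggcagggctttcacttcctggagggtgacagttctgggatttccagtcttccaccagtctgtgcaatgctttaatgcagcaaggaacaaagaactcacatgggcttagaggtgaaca
Slfn3, chr11:83191080-83191379, plus strand: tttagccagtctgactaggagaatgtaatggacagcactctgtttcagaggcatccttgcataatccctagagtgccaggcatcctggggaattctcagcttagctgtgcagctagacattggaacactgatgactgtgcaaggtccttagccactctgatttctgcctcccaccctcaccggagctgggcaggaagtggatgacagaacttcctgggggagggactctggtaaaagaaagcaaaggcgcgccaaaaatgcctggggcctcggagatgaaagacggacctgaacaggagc

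The core occurred in the windows of 3 of the 7 members, Slfn5, Slfn8 and Slfn9. Slfn5 held 2 matches, beginning 155 bases before the start on its own strand and 132 bases before it on the opposite strand. Slfn9 and Slfn8 each held the same 9 letters on the opposite strand, beginning 44 and 47 bases before the start. The window of a second annotated Slfn8 start overlaps the first and holds the same site, beginning 135 bases before that start. The Slfn8 and Slfn9 windows printed here were 80.8% identical over 312 aligned columns, whereas other pairs of members were at most 53.0% identical. Over all genes with a window, 9.76% held the core on either strand. The windows of Slfn1, Slfn2, Slfn3 and Slfn4 held no match. A gamma-activated site, TTCNNNGAA, occurred in 0 members and in 9.55% of all genes with a window. The Slfn5 window belongs to a start inside the annotated span of the gene, and upstream starts were not searched.

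**Figure D1:**
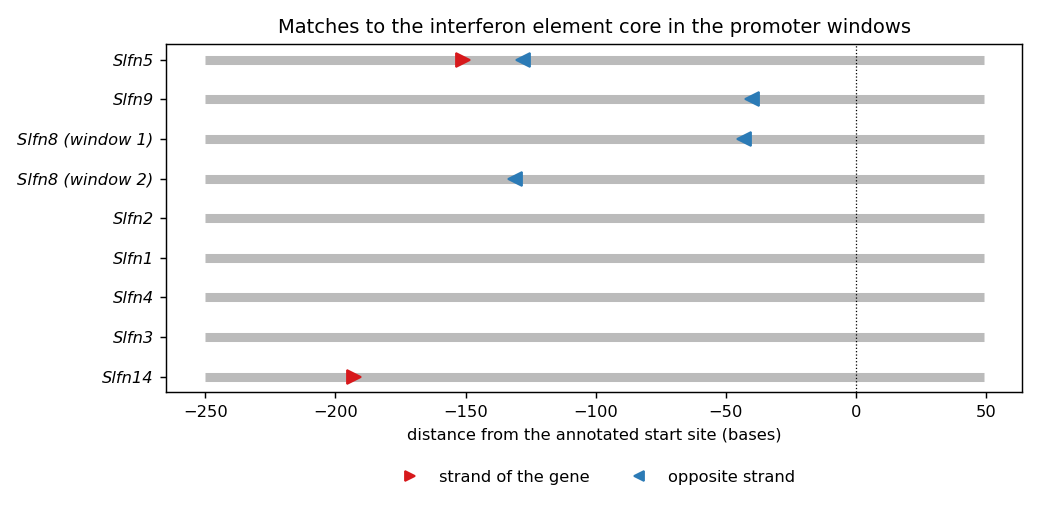
Position of each match to the interferon element core in the promoter windows of the 7 members and Slfn14. The horizontal axis is the distance in bases from the annotated start, gray bars are the windows and triangles are matches, pointing right on the strand of the gene and left on the opposite strand. Slfn5 has 2 matches, and those of Slfn9 and of the first Slfn8 window lie at nearly the same distance.

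The libraries held between 17118964 and 20741399 counts each, and levels are in CPM, a gene's count scaled to the size of its library. Usp18, the targeted gene, had 9.12, 10.95 and 11.2 CPM in oil 1, 3 and 4, against 15.1, 28.0 and 19.4 CPM in tamoxifen 1, 2 and 4. It was therefore higher, not lower, in every library labeled tamoxifen (log2 fold change 0.998, SE 0.23, edgeR adjusted p = 0.0739, or 0.00654 without tamoxifen 4), although the label names 1 deleted allele. Directions below are between libraries by their labels. The table gives 1 value for the gene and does not show the excised part separately, so whether 1 allele was deleted cannot be read from it. Kit, the gene of the sorted antigen, was present at 439 to 781 CPM and Gata2 at 457 to 652 CPM, but Ptprc, which encodes the pan-leukocyte antigen CD45, did not exceed 0.709 CPM and Elane was at 0 in all 6 libraries. The library labeled tamoxifen 4 stood apart from the other tamoxifen libraries, with a chi-square per degree of freedom of 57.3 and 69.1 against them and of 18.4 between tamoxifen 1 and 2, so the tests of the members are given with and without it.

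Slfn5, Slfn2 and Slfn8 were higher in all 3 libraries labeled tamoxifen than in any labeled oil, while Slfn3 and Slfn9 had negative fold changes that did not pass the test with all 6 libraries. With all 6 libraries, Slfn5 alone passed the test, an adjusted p under 0.05 over all genes tested, and without tamoxifen 4 all 5 tested members did, 3 of them upward and 2 downward. For comparison, edgeR called 1.75% of the 11614 genes tested higher and 0.267% lower with 6 libraries. Without tamoxifen 4 it called 19.2% higher and 17.1% lower of 11851. All 3 tamoxifen libraries lay above all 3 oil libraries for 13.3% of genes and below them for 11.8%. Of the members, 3 lay above and 0 below, and those 3 had an unadjusted p under 0.05 in edgeR. The median log2 fold change of the 5 tested members was 1.01, against 0.00012 over all genes tested, and was 1.19 without tamoxifen 4. In this bulk RNA, fewer cells of a type and less RNA per cell cannot be told apart.

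**Figure D2:**
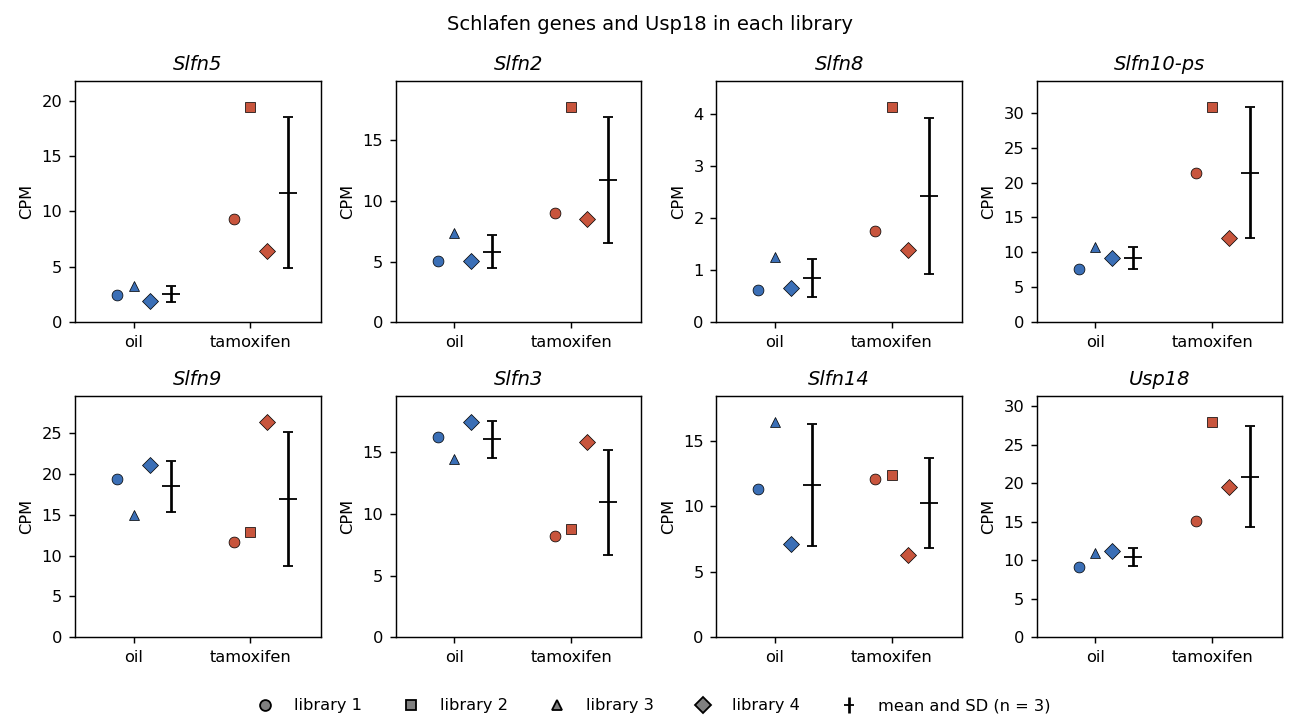
CPM in each library for the 5 tested members, Slfn10-ps, Slfn14 and Usp18, with a linear axis from 0 in each panel. Points are libraries, shaped by their number, and the black bar is the mean and SD of 3 libraries. Slfn5, Slfn2 and Slfn8 lie higher in every tamoxifen library, whereas tamoxifen 4 lies apart from tamoxifen 1 and 2 for Slfn3 and Slfn9.

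Slfn5, the nuclear long member and an interferon-inducible gene, was at 2.48, 3.30 and 1.90 CPM in oil 1, 3 and 4, against 9.27, 19.4 and 6.41 CPM in tamoxifen 1, 2 and 4. The lowest tamoxifen library lay above the highest oil library, and tamoxifen 2 stood highest. The means were 2.56 ± 0.700 CPM in oil and 11.7 ± 6.84 CPM in tamoxifen (SD, n = 3 each). Slfn5 rose 4.55-fold (2.19 on the log2 scale, SE 0.43), with an edgeR adjusted p of 0.0470 and a DESeq2 adjusted p of 1.74e-05. The edgeR call lies close to the threshold. It was lost in limma-voom (adjusted p = 0.113) and with genes of a mean under 50 counts removed (0.0582). It was also lost without oil 1 (0.223), oil 3 (0.167), oil 4 (0.193), tamoxifen 1 (0.121) or tamoxifen 2 (0.0945), whereas without tamoxifen 4 it was 0.000474 with a log2 fold change of 2.48 (SE 0.33). Slfn5 kept a positive fold change of at least 1.61 on the log2 scale in each of these fits. The antisense transcript Slfn5os overlaps it and holds 5.46% of its 150-base stretches, and how the counting treated strand is not given in the sources used here. At 50 bases, 11.1% of the stretches of Slfn5 occur in another gene, most often Slfn5os, with 635 such genes in all. Slfn5os itself had at most 5.5 counts in any library, against 37 to 329 for Slfn5.

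Slfn2, the quiescence factor, was at 5.07, 7.37 and 5.04 CPM in oil 1, 3 and 4, against 9.00, 17.7 and 8.51 CPM in tamoxifen 1, 2 and 4. The groups did not overlap, and again tamoxifen 2 was the highest and oil 3 the highest of its group. The means were 5.82 ± 1.34 and 11.7 ± 5.18 CPM (SD, n = 3 each), and the fitted log2 fold change was 1.01 (SE 0.32). It missed the edgeR threshold with all libraries (adjusted p = 0.150) and passed it in DESeq2 (0.0351) and without tamoxifen 4 (0.00971), where the log2 fold change was 1.19 (SE 0.28). With any other 1 library left out it did not pass, with edgeR adjusted p up to 0.431.

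Slfn8, a tRNA-cleaving long member, was the lowest of those tested, at 0.619, 1.26 and 0.669 CPM in oil 1, 3 and 4, against 1.76, 4.13 and 1.38 CPM in tamoxifen 1, 2 and 4. The ranges did not overlap, although tamoxifen 4 lay only slightly above oil 3. The means were 0.849 ± 0.357 and 2.42 ± 1.49 CPM (SD, n = 3 each), with a log2 fold change of 1.49 (SE 0.52). The adjusted p was 0.180 in edgeR and 0.0853 in DESeq2, and 0.0172 in edgeR without tamoxifen 4 (log2 fold change 1.77, SE 0.48). Slfn8 passed with no other 1 library left out (edgeR adjusted p up to 0.488).

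Slfn3, of intermediate length, had a fold change of the opposite sign, with 16.3, 14.5 and 17.5 CPM in oil 1, 3 and 4, against 8.23, 8.80 and 15.9 CPM in tamoxifen 1, 2 and 4. Tamoxifen 1 and 2 lay below every oil library and tamoxifen 4 within the oil range. With 6 libraries the log2 fold change was -0.55 (SE 0.25), which did not pass in edgeR (adjusted p = 0.263) or DESeq2 (0.208). Without tamoxifen 4 Slfn3 fell by 0.92 on the log2 scale (SE 0.15), with an edgeR adjusted p of 0.00159. Leaving out any other 1 library did not bring it past the threshold (edgeR adjusted p up to 0.559). At 50 bases, 15.99% of its stretches occur in another gene, most often Slfn4, with 69 such genes in all. Slfn4 itself had 1.5 counts over all libraries. At 150 bases 1.29% do, all of them in the neighboring pseudogene Gm11427, which was not among the symbols counted.

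Slfn9, the neighbor and close relative of Slfn8, was at 19.4, 15.0 and 21.1 CPM in oil 1, 3 and 4, against 11.6, 12.9 and 26.4 CPM in tamoxifen 1, 2 and 4. The tamoxifen libraries thus lay on both sides of the oil range, tamoxifen 4 above all of it and the other two below. The log2 fold change over 6 libraries was -0.12 (SE 0.31), with an edgeR adjusted p of 0.834, and it changed sign when tamoxifen 1 or tamoxifen 2 was left out. Without tamoxifen 4 Slfn9 fell by 0.59 on the log2 scale (SE 0.17, edgeR adjusted p = 0.0219). Slfn8 and Slfn9 share no exact stretch of 150 bases with each other, but 1.46% of those of Slfn9 also occur in Slfn10-ps. At 50 bases, 14.6% of the stretches of Slfn8 and 11.9% of those of Slfn9 occur in another gene, mostly Slfn10-ps. Slfn10-ps had more CPM than Slfn8 in every library, so the counts of Slfn8 in particular are uncertain, and what share of its reads came from Slfn10-ps was not tested.

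The other 2 members were barely detected. Slfn1, which restrains the growth of T cells, had 9 counts in oil 3 and at most 2 in every other library, and Slfn4, known from macrophages and other myeloid cells, had 1.5 counts in oil 3 and 0 in the other 5. A count of 0 allows up to 3 counts, or 0.145 to 0.177 CPM depending on the library, counting error only. No difference of Slfn1 or Slfn4 between the groups was detectable at this depth.

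Tamoxifen 4 was the lowest tamoxifen library for 3 tested members and the highest for the other 2. Measured from the oil mean in log2 CPM, Slfn5 stood at 1.85, 2.91 and 1.32 in tamoxifen 1, 2 and 4, and Slfn8 at 1.02, 2.21 and 0.70. Slfn2 stood at 0.64, 1.61 and 0.56. For these 3 members tamoxifen 4 lay on the same side of the oil mean as the others. Slfn3 stood at -0.95, -0.86 and -0.02 and Slfn9 at -0.65, -0.50 and 0.53, so for these tamoxifen 4 did not share the direction of the others.

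Relative to gene length the order of the members differed between the groups. Per kb of exon, the oil means were 4.71 ± 0.442 CPM for Slfn3, 3.50 ± 0.803 for Slfn2, 3.10 ± 0.529 for Slfn9, 0.404 ± 0.111 for Slfn5 and 0.208 ± 0.0872 for Slfn8 (SD, n = 3). The ranges of Slfn3 and Slfn2, of Slfn2 and Slfn9, and of Slfn5 and Slfn8 overlapped, while Slfn9 and Slfn5 were far apart. In the tamoxifen libraries the means per kb were 7.06 ± 3.11 for Slfn2, 3.21 ± 1.25 for Slfn3, 2.85 ± 1.37 for Slfn9, 1.85 ± 1.08 for Slfn5 and 0.592 ± 0.365 for Slfn8. Slfn2 was above Slfn3 in all 3 tamoxifen libraries. Slfn3 overlapped Slfn9, and Slfn9 overlapped Slfn5.

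The sum of the family and its make-up were compared next. The 7 members together held 43.8, 41.9 and 46.2 CPM in oil 1, 3 and 4 and 40.0, 63.1 and 58.6 CPM in tamoxifen 1, 2 and 4, so the groups overlapped. Slfn5 made up 4.13% to 7.87% of the family's counts in oil and 23.2%, 30.8% and 10.9% in tamoxifen 1, 2 and 4. Slfn3 made up 34.6% to 37.9% of them in oil, and 20.6%, 13.96% and 27.1% in the libraries labeled tamoxifen. These 2 shares did not overlap between the groups, whereas those of Slfn9, at 35.7% to 45.7% in oil against 29.1%, 20.4% and 45.0% in the tamoxifen libraries, did. The ratio of Slfn5 to Slfn3 counts was 0.152, 0.227 and 0.109 in oil 1, 3 and 4, as against 1.13, 2.21 and 0.404 in the libraries tamoxifen 1, 2 and 4. Slfn5 and Slfn3 have the highest and lowest log2 fold changes of the tested members, so this ratio is not separate support. The ratios of Slfn5 to Slfn9 and of Slfn2 to Slfn3 did not overlap between the groups. That of Slfn8 to Slfn9 did, with 0.0524 in tamoxifen 4 and 0.0858 in oil 3. The shares are parts of a whole and carry no separate test.

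**Figure D3:**
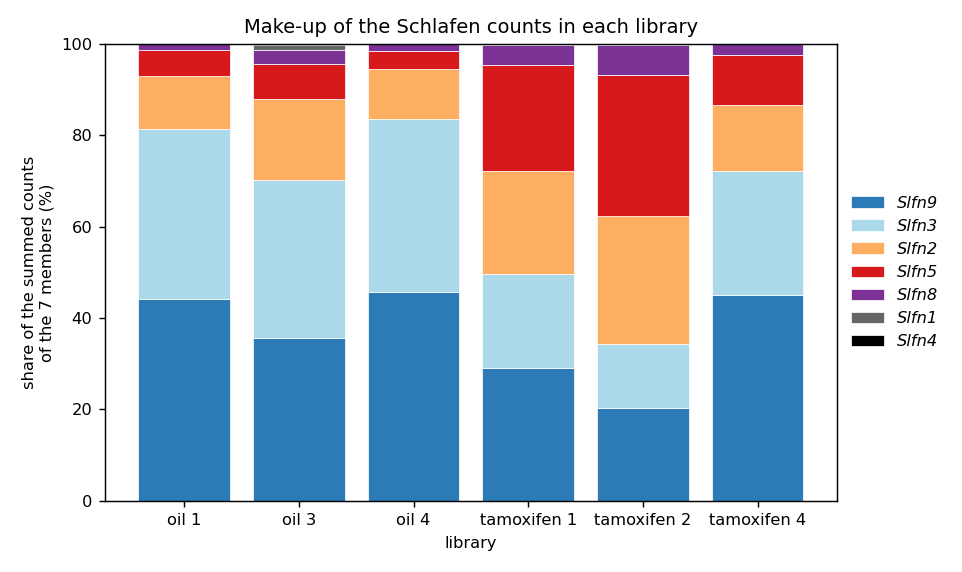
Share of each member in the summed counts of the 7 members, in percent, as stacked bars for the 6 libraries. Slfn9 and Slfn3 make up most of the oil libraries, and Slfn5, Slfn2 and Slfn8 take more of tamoxifen 1 and 2. Tamoxifen 4 has 45.0% Slfn9, inside the oil range, and 10.9% Slfn5, above it.

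Schlafen-named genes outside the 7 members also differed from each other. The pseudogene Slfn10-ps was at 7.60, 10.8 and 9.26 CPM in oil 1, 3 and 4, against 21.4, 30.8 and 12.04 CPM in tamoxifen 1, 2 and 4, with no overlap. Its log2 fold change was 1.21 (SE 0.32), with an adjusted p of 0.0970 in edgeR, 0.00427 in DESeq2 and 0.000395 in edgeR without tamoxifen 4 (log2 fold change 1.499). At 50 bases 19.7% of its stretches occur in another gene, mainly Slfn9, so its counts are uncertain too. Slfn14 was at 11.4, 16.5 and 7.10 CPM in the oil libraries, against 12.1, 12.4 and 6.30 CPM in those labeled tamoxifen, overlapping throughout (log2 fold change -0.19, SE 0.35, edgeR adjusted p = 0.773), and its value without tamoxifen 4 was 0.07 (adjusted p = 0.869). Slfnl1, on chromosome 4, had 0 counts in all 6 libraries.

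The cluster was then compared with the genes beside it. Within 250 kb on either side, 11 genes that are not Schlafen genes were tested, and edgeR and DESeq2 called 0 of them with 6 libraries. Of these, Gm11423, 1700020L24Rik and Mmp28 had edgeR unadjusted p-values under 0.05. The median log2 fold change of the 11 was 0.20, from -0.16 for Ap2b1 to 1.16 for Gm11423, beside 1.01 for the tested members. Without tamoxifen 4, Gm11423 (1.55), Mmp28 (1.01) and 1700020L24Rik (0.89) passed upward and Lig3 (-0.26) downward. That is 3 and 1 of the 11, where 19.2% of all genes passed upward and 17.1% downward. All 3 tamoxifen libraries lay above all 3 oil libraries for 4 of the 11 and below them for 1, against 13.3% and 11.8% of all genes. Zfp830, Rffl, Rad51d, Nle1, AI662270 and Ap2b1 passed in none of the 3 fits. Negative fold changes inside the cluster were at Slfn9, between Slfn5 and Slfn8, and at Slfn3 on the far side.

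**Figure D4:**
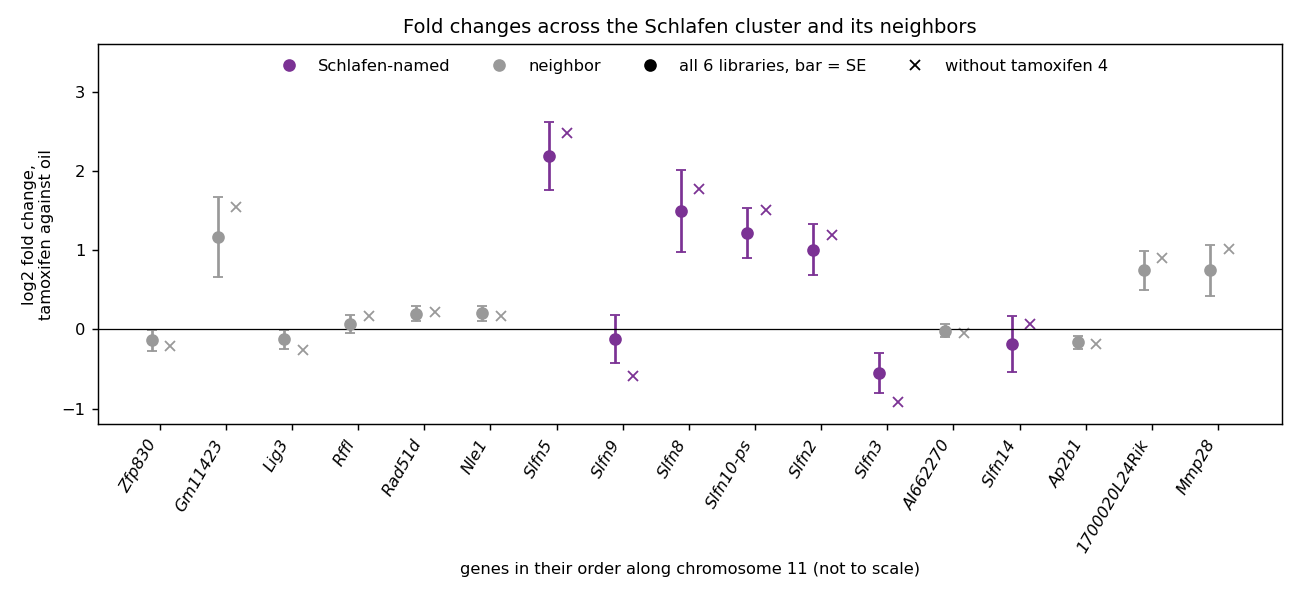
Log2 fold change of tamoxifen against oil for the tested Schlafen-named genes (purple) and the neighbors named here (gray), in their order on chromosome 11. Circles with bars are the fit of 6 libraries with its SE, and crosses are the fit without tamoxifen 4. Slfn5, Slfn8, Slfn10-ps and Slfn2 lie above 0 and Slfn9 and Slfn3 below it in both fits, and the crosses lie farther from 0 than the circles for all 6.

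Interferon genes in the same libraries were taken as the pathway around the family. Of 24 tested interferon-stimulated effectors, 23 had fold changes above 1, against 5809 of all 11614 genes tested. The median log2 value of the effectors was 0.53. Over all genes edgeR called 1.75% higher and 0.267% lower, and of the effectors it called 1 higher and 0 lower. This was Mx2, an antiviral GTPase at 0 to 0.194 CPM in oil and 1.21 to 3.42 CPM in tamoxifen (log2 fold change 4.28, edgeR adjusted p = 0.0399). DESeq2 called 10 of the 24 higher, where it called 6.14% of all genes higher and 1.99% lower. By DESeq2, 2 of the Schlafen members were higher, Slfn5 and Slfn2, and 0 lower. Of 10 genes of the interferon receptor signaling, 1 was called, the feedback inhibitor Socs1, which rose from 35.7 to 42.3 CPM in oil to 60.2 to 117 CPM in tamoxifen (log2 fold change 1.14, edgeR adjusted p = 0.0438). DESeq2 called 3 of these 10 higher and 0 lower. The 6 tested interferon regulatory factors had a median of 0.50 with 0 called in edgeR, and Irf7 (1.48) and Irf1 (0.81) had the largest values, with unadjusted p-values of 0.00708 and 0.0179. DESeq2 called 1 regulatory factor, Irf5 (log2 fold change 0.43, adjusted p = 0.0216), whose edgeR unadjusted p was 0.00484. Without tamoxifen 4, 14 of the 24 effectors, 6 of the 10 receptor genes and 3 of the 6 regulatory factors passed upward. In the same fit 1 effector, Ifit2, passed downward (-0.29). Over all genes in that fit, 19.2% passed upward and 17.1% downward.

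Lists nearer to the known roles of Slfn2, Slfn8 and Slfn9 were also counted. Of 9 tested genes for tRNA cleavage and for sensing stalled ribosomes, edgeR and DESeq2 called 0, none had an unadjusted p under 0.05, and the median log2 fold change was -0.04. The largest values were 0.53 for Ang, the tRNA-cutting angiogenin, 0.27 for Gtpbp2 and -0.23 for Eif2ak4. Without tamoxifen 4, Gtpbp2 passed upward (0.49, edgeR adjusted p = 0.00158) and Eif2ak4 downward (-0.39, edgeR adjusted p = 0.0101). That is 1 of 9 in each direction, where 19.2% of all genes passed upward and 17.1% downward. Of 9 tested quiescence genes, both tools again called 0 and the median was 0.07. Btg1 (1.24, unadjusted p = 0.0146), Klf2 (1.21) and Foxo1 (0.83) had the largest values, and without tamoxifen 4 Btg1 and Klf2 passed upward, 2 of 9 where 19.2% of all genes did.

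The genes whose levels over the 6 libraries were most like a member's were found as a description. For Slfn5 they were Dok3, Serpinb12 and Tinagl1, with root mean square differences of 0.197, 0.243 and 0.245 in log2 CPM centered on each gene's mean. For Slfn9, the member with the highest mean CPM, they were E330013P04Rik (0.0931), Ppp1r13l (0.0952) and Esco2 (0.109).

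Markers of other cells were summed in the same libraries. The summed level of 8 mast cell markers was 2378 to 2643 CPM in oil and 4274, 6844 and 3109 CPM in tamoxifen 1, 2 and 4. Of these 8, 7 had positive log2 fold changes and 1, Ms4a2 (-0.04), a negative one. Ms4a2 was at 862 to 917 CPM in oil and 830 to 931 CPM in tamoxifen. EdgeR called 2 higher, Fcer1a (2.12, adjusted p = 0.0381) and Tpsb2 (4.16, adjusted p = 0.0402). DESeq2 called 6 higher, where edgeR called 1.75% of all genes higher and DESeq2 6.14%. Of 9 T and NK cell markers, 6 were at 0 in all libraries, among them Cd3e, Cd8a and Ncr1, and the sum was 1.13 to 2.57 CPM in oil and 20.0, 56.4 and 7.62 CPM in tamoxifen, nearly all of it Nkg7. The 12 macrophage and monocyte markers summed to 26.1 to 31.7 CPM in oil and 49.6, 60.7 and 30.6 CPM in tamoxifen. Most of this sum was Ccr2 (20.2 to 23.8 CPM in oil and 20.9 to 37.8 CPM in tamoxifen). Of the 8 tested markers of this list, 6 had positive log2 fold changes and 2, C1qb (-0.17) and C1qc (-0.12), negative ones. Hmox1 was the 1 that edgeR called (log2 fold change 2.53, edgeR adjusted p = 0.0426). The 9 erythroid markers summed to 3906 to 6178 CPM in oil and 7182, 7517 and 3126 CPM in tamoxifen. The 5 B cell markers, 2 of them at 0 throughout, and the 7 neutrophil markers, 1 of them at 0, did not exceed 1.18 CPM in sum in any library. The 9 leukemia and progenitor markers summed to 921 to 991 CPM in oil and 1341, 1575 and 1033 CPM in tamoxifen, most of it Kit and Gata2. All 5 tested markers of this list had positive log2 fold changes, and edgeR called 1, Cd34. It was at 8.43 to 11.7 CPM in oil and 41.8 to 134 CPM in tamoxifen (log2 fold change 3.27, edgeR adjusted p = 0.0232). The 6 dendritic cell markers summed to 66.5 to 74.2 CPM in oil and 55.7, 93.5 and 96.7 CPM in tamoxifen, and 2 of them, Siglech and Flt3, were at 0 in all libraries. Nearly all of this sum was Bst2 (62.9 to 70.1 CPM in oil and 52.8 to 93.7 CPM in tamoxifen), which is also 1 of the interferon-stimulated effectors. Zbtb46, the other tested marker of this list, was lower in every tamoxifen library, at 3.65 to 5.63 CPM in oil and 2.63 to 3.25 CPM in tamoxifen. Among the tamoxifen libraries, the mast, T and NK, macrophage, erythroid and progenitor sums were highest in tamoxifen 2 and lowest in tamoxifen 4, as were Slfn5, Slfn2 and Slfn8. The part of these cell types in the Schlafen values was not tested.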

How the data were processed

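RNA was extracted with Trizol from sorted cells of 3 mice per group. Per the labels, libraries were made with the Nextera DNA Flex kit. The deposited table gives estimated counts by gene symbol, which the authors had not scaled between libraries. The submitters' processing notes name STAR, DESeq2 and mm10, and the counting program, strand setting and annotation are not given in the sources used here. Between 25.9% and 27.3% of the values of a library were not whole, and counts were rounded before testing. The table holds 26 rows whose symbol had become a date, which stayed in the library totals. Total counts were 17118964 to 20741399 per library. Replicates differed beyond sampling noise (chi-square per degree of freedom of at least 7.32).

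Libraries are numbered as in the table. Sample titles number them oil 1, 2 and 4 and tamoxifen 1, 3 and 4, so oil 3 and tamoxifen 2 entered as members of their named group only.

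Counts were analyzed in R 4.3.3 with edgeR 4.0.16 (filterByExpr by group, TMM normalization, quasi-likelihood F test) on the whole table, with Benjamini-Hochberg adjustment over 11614 genes and a threshold of 0.05. CPM is the count of a gene scaled to the TMM-adjusted total of tested genes in its library. Standard errors were derived from the F statistics. Log2 CPM used a prior count of 2. Gene positions and exon lengths came from GENCODE M21. Alternatives were DESeq2 1.42.0, limma-voom (limma 3.58.1), other scalings and filters, unrounded counts, a replicate block and each library left out. DESeq2 without tamoxifen 4, and the pathway lists by DESeq2 or without tamoxifen 4, were added after seeing the data. The scripts were tested on simulated data.

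The members and lists were chosen with earlier results of these data known. The genes named are all Schlafen-named genes, Usp18, tested neighbors, and of each pathway list the genes called or otherwise the 3 with the largest absolute log2 fold change, plus the 3 genes most like Slfn5 and Slfn9. Some genes that this rule names are not reported here. Marker genes named from a list were chosen after their values were seen. The paired ATAC-seq and another batch of the same setting were not analyzed here.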

Additional observations from a re-analysis of the deposited data

How the results depend on the processing

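With 6 libraries, 1 member was called higher and 0 lower. Other scalings within edgeR, no low-count filter and unrounded counts gave the same counts. The DESeq2 Wald test called 2 higher, limma-voom 0, and a minimum mean of 50 counts, which also removed Slfn8, gave 0. Leaving out 1 library gave between 0 and 3 members higher and between 0 and 2 lower, with both upper values reached without tamoxifen 4. Without any other 1 library, 0 members were called. DESeq2 without tamoxifen 4, added after seeing the data, also gave 3 higher and 2 lower. Slfn5, Slfn2 and Slfn8 had positive and Slfn3 negative log2 fold changes in all alternatives that gave a value. With 1 library left out, the Slfn9 value ran from -0.59 without tamoxifen 4 to 0.089 without tamoxifen 1, and was also positive without tamoxifen 2 (0.043). That of Slfn14 ran from -0.45 without oil 4 to 0.15 without oil 3, and was also positive without tamoxifen 4 (0.069 in edgeR and 0.070 in DESeq2), never past the threshold. Over the whole table, the counts of 203 genes higher and 31 lower became 713 and 231 in DESeq2, 48 and 6 in limma-voom, 372 and 61 with no filter, and 120 and 17 at a mean of 50 counts. Leaving out a library gave 8 to 2278 higher and 0 to 2024 lower. The cause was not tested, except that fewer libraries or genes were fitted where they were left out. The core was found in 1 member on the strand of the gene alone, against 3 on either strand.

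A replicate block can use only numbers 1 and 4, which leaves 1 residual degree of freedom. Same-numbered libraries had deviations correlated at -0.13 and 0.062, and nothing else pairs them. Under the replicate block the counts were 1 member higher and 0 lower, and the Slfn5 log2 fold change was 1.83 (adjusted p = 0.00337). Slfn2 (0.79), Slfn8 (1.27), Slfn3 (-0.55) and Slfn9 (-0.19) stayed outside the threshold.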
